A study of Chlorocebus sabaeus with 6 samples.

Results

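ALDH1A2 and a small set of genes around it that make, sense and break down retinoic acid were followed in COS-1, an SV40-transformed fibroblast-like line from the kidney of the African green monkey, Chlorocebus sabaeus. The set was given as 7 human Ensembl protein accessions, each paired with a gene symbol, and a member was a row of the deposited expression table whose name, without its trailing number, equalled one of them. Of the 7, 6 had a row among the 51520 features of the table: ALDH1A2, ALDH1A1, ALDH1A3, CYP26B1, RARA and RARB. CRABP2, a small protein that carries retinoic acid to the nucleus, had none and was not analysed here. The table pairs no accession with a symbol, so the names rest on the list. The RefSeq gene table of Chlorocebus sabaeus assembly mChlSab1.0.hap1 places each of the 6 symbols on a chromosome of the same number as the row.

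Messenger RNA was sequenced from 3 libraries of lentivirus-treated COS-1 cells and 3 libraries of control cells that received no treatment. Both groups spent 14 h without serum before 90 min of stimulation with 2 ng/ml EGF, the epidermal growth factor, and no unstimulated sample enters the comparison. The series title concerns SHOC2, which scaffolds RAS and RAF on the way to ERK1/2, but the cargo of the lentivirus is not stated. Since the control cells received no virus, effects of the virus and of any cargo cannot be told apart. The labels do not say whether replicates were separate cultures, and the spread between libraries may therefore be technical.

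Retinoic acid is made from vitamin A. Retinaldehyde dehydrogenases of the ALDH1A family carry out the last, irreversible step, the oxidation of retinaldehyde to retinoic acid. The product binds nuclear receptors of the RAR family, which act on DNA as heterodimers with RXR, and enzymes of the CYP26 family inactivate it. RARB is a classic target of the pathway as well as one of its receptors, through a retinoic acid response element in its promoter.

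Values are FPKM as deposited, which scale fragments to feature length and library size, so levels of different genes are given per length. The columns summed to 2094230 to 2206925 FPKM, and the number of reads behind them is unknown. The 28434 features averaging 1 FPKM or more over all libraries were tested. Across them, and features are no independent replicates, log2(FPKM + 1) correlated with Pearson's r of 0.935 to 0.949 between groups and 0.941 to 0.953 within a group. Kidney fibroblast markers and SHOC2 were not analysed here, as no source used pairs their names with rows.

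The genes were chosen with the result of this comparison already known. ALDH1A2 was selected on its FPKM difference between lentivirus-treated and control libraries, among the largest decreases, and the other genes belong to the same pathway. Their differences between the groups are therefore given as a description, with no p-value. Counts of genes that were lower or called are printed beside the share of all tested features and support nothing. In libraries made from whole cultures, fewer expressing cells and less RNA per cell cannot be told apart.

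ALDH1A2 was the gene of the set with the largest difference. It encodes the retinaldehyde dehydrogenase that supplies most retinoic acid in the early vertebrate embryo. Its feature (ENSP00000249750_1) spans chromosome 26 from 25439512 to 25555384 in the coordinates of the deposited table, whose genome build is not given in the sources used here, and overlaps no other feature. ALDH1A2 stood at 11.8, 12.2 and 11.5 FPKM in the lentivirus-treated libraries, against 45.1, 46.9 and 48.5 FPKM in the control libraries. The groups were far apart, with 32.9 FPKM between the highest lentivirus-treated and the lowest control library. The means were 11.8 ± 0.370 FPKM in lentivirus-treated and 46.8 ± 1.69 FPKM in control cells (SD, n = 3 each), so that lentivirus-treated cells held 25.3% of the control level. On the log2(FPKM + 1) scale the difference was -1.90 with an SE of 0.050. The coefficient of variation within a group was 3.12% in lentivirus-treated and 3.61% in control libraries.

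ALDH1A2 was in the upper part of the range of levels in control cells and near its middle in lentivirus-treated cells. Its mean level exceeded that of 48.0% of tested features in lentivirus-treated cells and of 78.5% in control cells. A more negative difference was found in 128 of the 28434 tested features (0.45%). Among the 9949 tested features that overlap no other, 7 had a more negative difference.

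ALDH1A3, a second retinaldehyde dehydrogenase (ENSP00000332256_1, chromosome 29 from 19347201 to 19381745), was also lower after lentivirus, by a smaller factor. Its values were 6.16, 6.16 and 6.23 FPKM in lentivirus-treated libraries, against 8.85, 9.86 and 8.78 FPKM in control libraries. The groups did not overlap, and the lentivirus-treated libraries had a coefficient of variation of only 0.656%. Lentivirus-treated cells averaged 6.18 ± 0.0406 FPKM and control cells 9.16 ± 0.602 FPKM (SD, n = 3 each), 67.5% of the control level. The difference on the log2(FPKM + 1) scale was -0.50 (SE 0.066).

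ALDH1A1, the third member of the family (ENSP00000297785_1, chromosome 12 from 83950066 to 84008989), had the lowest level of the set by its own row. It stood at 0.824, 0.798 and 0.417 FPKM in lentivirus-treated libraries, against 1.74, 1.64 and 1.60 FPKM in control libraries. The groups did not overlap, but the third lentivirus-treated library was well below the other two. The means were 0.680 ± 0.228 and 1.66 ± 0.0706 FPKM in lentivirus-treated and control cells (SD, n = 3 each). ALDH1A1 passed the limit of 1 FPKM on the mean over all libraries only through the control group. Its difference of -0.67 on the log2(FPKM + 1) scale (SE 0.14) depends on the added constant, being -1.22 when 0.1 FPKM was added in place of 1 and -0.23 when 5 FPKM was added.

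Features that share the position of ALDH1A1 limit what its row can show. JK091297.1 (83971762 to 84009033) stood at 0.292, 0.306 and 0.332 FPKM in lentivirus-treated libraries and at 1.07, 0.943 and 1.31 FPKM in control libraries, too low to be tested. JK101427.1 (83995878 to 84008955) stood at 16.4, 14.9 and 7.70 FPKM in lentivirus-treated libraries and at 0.00027, 24.4 and 13.7 FPKM in control libraries. That feature was near 0 in a single control library and abundant in the other 5, with the groups overlapping. When the 3 overlapping features were summed, the difference turned to 0.22 log2. That positive sign rests on the first control library, where JK101427.1 was near 0, and gives no direction for the ALDH1A1 position. The table gives no strand, and how reads were shared between overlapping features is not given in the sources used here.

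**Figure D1:**
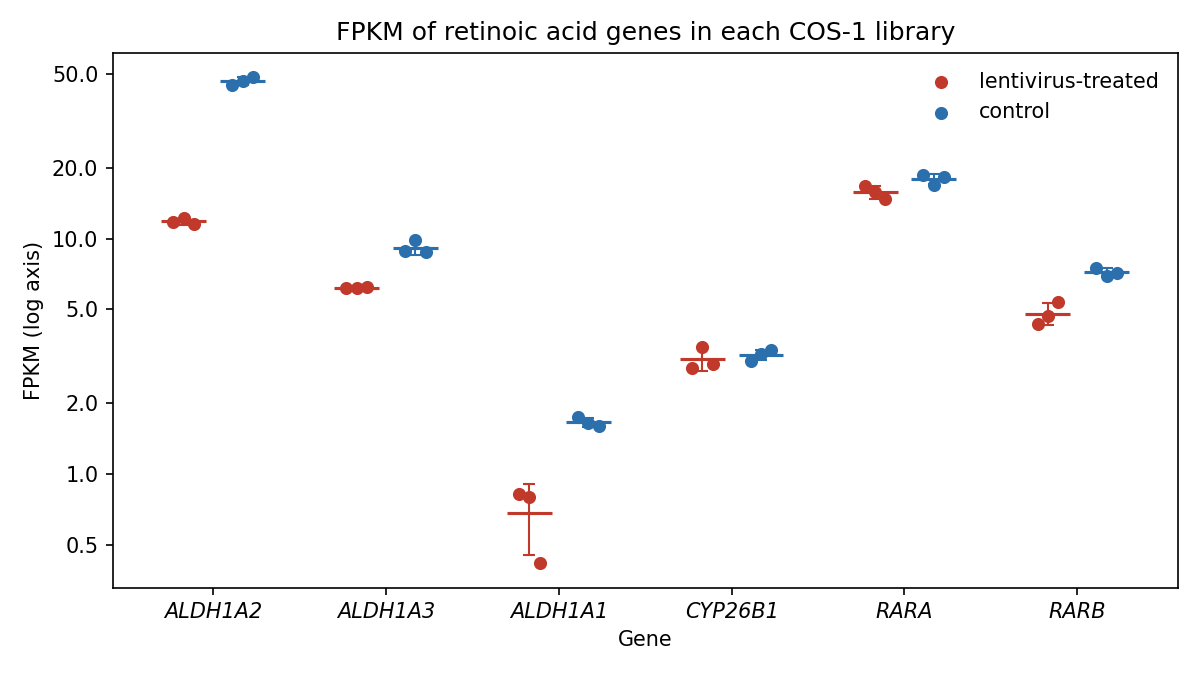
FPKM (log axis) of the 6 genes in each library; points are libraries, the long horizontal line is the mean and the capped bar the SD of 3 libraries, lentivirus-treated in red and control in blue. ALDH1A2 libraries stand near 12 FPKM in lentivirus-treated and 45.1 to 48.5 FPKM in control cells, while those of CYP26B1 overlap.

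Summed over the ALDH1A2, ALDH1A3 and ALDH1A1 rows, the level was 18.8, 19.2 and 18.1 FPKM in lentivirus-treated libraries, against 55.7, 58.4 and 58.8 FPKM in control libraries. The sum leaves out the features that overlap ALDH1A1. One of them, JK101427.1, stood at 16.4, 14.9 and 7.7 FPKM in lentivirus-treated libraries, beside 11.8, 12.2 and 11.5 FPKM for ALDH1A2. The shares therefore hold for these rows only. ALDH1A2 made up most of that sum in all 6 libraries. Its share was 63.3 ± 0.400% in lentivirus-treated and 81.2 ± 1.07% in control cells (SD, n = 3 each). The share of ALDH1A3 was 33.1 ± 1.19% in lentivirus-treated and 15.9 ± 1.00% in control cells, although its own level was lower after lentivirus. The ratio of ALDH1A2 to ALDH1A3 was accordingly 1.92, 1.98 and 1.84 in lentivirus-treated libraries and 5.10, 4.76 and 5.52 in control libraries. The ALDH1A1 row contributed 2.30% to 4.38% of the sum in lentivirus-treated and 2.72% to 3.12% in control libraries.

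**Figure D2:**
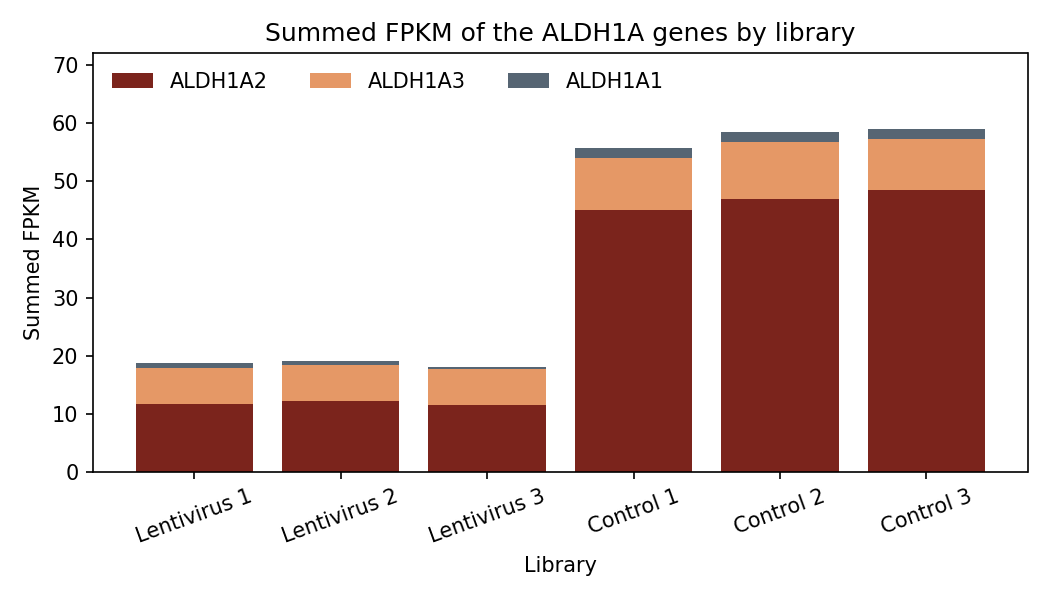
Summed FPKM of the ALDH1A2, ALDH1A3 and ALDH1A1 rows in each library, as stacked bars with lentivirus-treated libraries on the left and control libraries on the right. Features that overlap ALDH1A1 are left out. The sum is 18.1 to 19.2 FPKM in lentivirus-treated and 55.7 to 58.8 FPKM in control libraries, and most of the gap is ALDH1A2.

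CYP26B1, a cytochrome P450 that oxidises retinoic acid to inactive products (ENSP00000001146_1, chromosome 14 from 35038591 to 35054143), showed no separation of the groups. Its values were 2.83, 3.47 and 2.93 FPKM in lentivirus-treated libraries, against 3.03, 3.22 and 3.36 FPKM in control libraries. The second lentivirus-treated library was the highest of all 6. The means were 3.08 ± 0.347 and 3.20 ± 0.166 FPKM in lentivirus-treated and control cells (SD, n = 3 each), and the difference of -0.05 log2 was smaller than its SE of 0.096. The ratio of ALDH1A2 to CYP26B1 FPKM was 3.87 ± 0.337 in lentivirus-treated and 14.6 ± 0.252 in control cells.

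The receptors differed from each other in the size of their difference. RARA (ENSP00000254066_1, chromosome 16 from 65819290 to 65844259), the broadly expressed retinoic acid receptor alpha, stood at 16.7, 15.8 and 14.8 FPKM in lentivirus-treated libraries, against 18.6, 16.9 and 18.3 FPKM in control libraries. The groups did not overlap, but only 0.164 FPKM lay between the first lentivirus-treated and the second control library. The means were 15.8 ± 0.941 and 17.9 ± 0.896 FPKM in lentivirus-treated and control cells (SD, n = 3 each), a difference of -0.17 log2 (SE 0.067).

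RARB, receptor beta (ENSP00000332296_1, chromosome 15 from 70096720 to 70264902), was more clearly separated. It stood at 4.34, 4.71 and 5.37 FPKM in lentivirus-treated libraries, against 7.48, 6.92 and 7.18 FPKM in control libraries. The groups did not overlap, with 1.54 FPKM between them. The means were 4.81 ± 0.520 FPKM in lentivirus-treated and 7.19 ± 0.281 FPKM in control cells (SD, n = 3 each), 66.9% of the control level, and the difference was -0.50 log2 (SE 0.087). The ratio of RARA to RARB was 3.85, 3.36 and 2.76 in lentivirus-treated libraries and 2.48, 2.44 and 2.54 in control libraries.

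The order of levels within the set, in FPKM of each gene's own row, changed at its top. In lentivirus-treated cells RARA was highest, followed by ALDH1A2, ALDH1A3, RARB, CYP26B1 and ALDH1A1. In control cells ALDH1A2 was highest, followed by RARA, with the remaining genes in the same order. No neighbours in either order had overlapping libraries.

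All 6 genes had a lower mean after lentivirus, where 50.1% of all tested features had a negative difference, and the median difference was -0.50 log2 over the 6 genes and -0.001 log2 over all tested features. In 5 of the 6 every lentivirus-treated library was below every control library, as in 16.5% of all tested features. The 5 include ALDH1A1, which passed the limit of 1 FPKM only through the control group, and RARA, with 0.164 FPKM between the groups. By limma with Benjamini-Hochberg adjustment over the 28434 features at 0.05, 3 genes were called, all lower (ALDH1A2, ALDH1A3 and RARB), against 3.59% of tested features called lower and 6.48% called in either direction. These counts and calls describe genes picked with the comparison in view and are not a test of them. The calls of ALDH1A3 and RARB were lost in each of the 6 fits that left out 1 library, with differences of -0.53 to -0.45 and -0.57 to -0.44 log2. Those fits called 48 to 118 of all tested features, against 1842 with all libraries, so most calls of the table were lost there. In the same fits the difference of ALDH1A2 was -1.92 to -1.87 log2; it was selected for its size in these libraries, so its call there is no sign of stability. RARB also lost its call without a filter on low values and on the TPM scale. On that scale each column has the same sum, smaller than its FPKM sum, while 1 was still added, so the added constant weighs more. RARB kept its call under median ratio scaling (-0.49 log2) and quantile normalization (-0.50 log2). With the replicate number as a block, none of the genes was called, and the same limma fit called 0 of all tested features, with 6084 at an unadjusted p under 0.05.

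**Figure D3:**
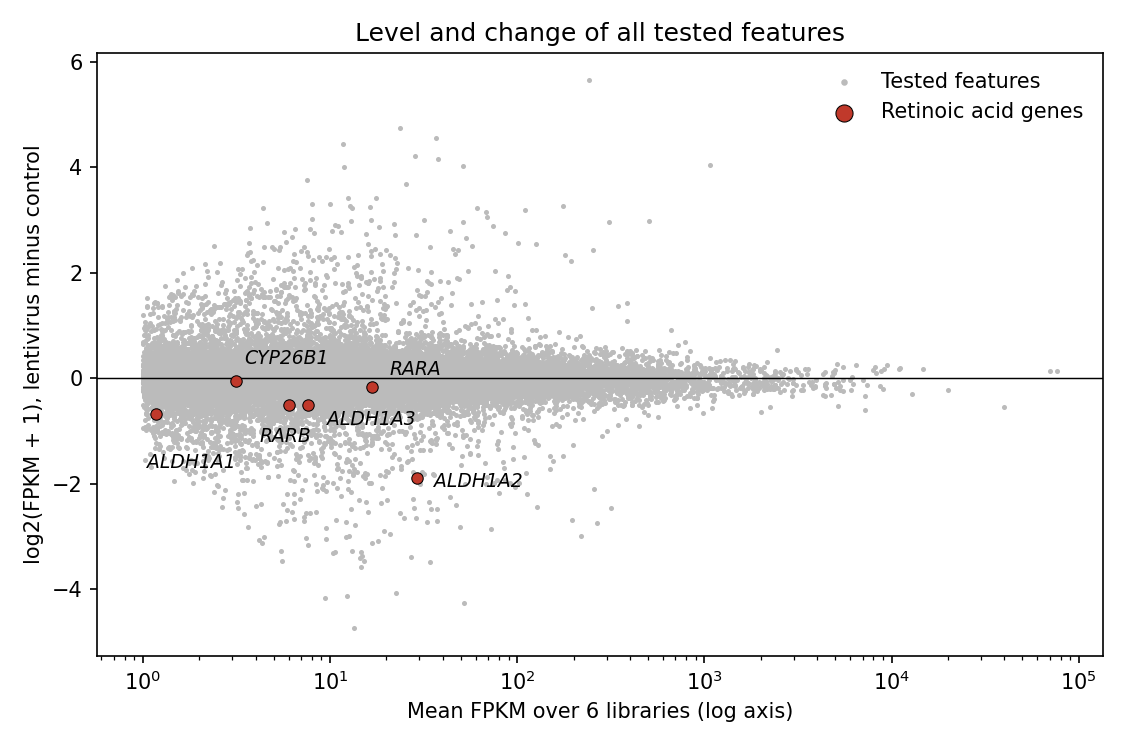
Difference in log2(FPKM + 1), lentivirus-treated minus control, against the mean FPKM over 6 libraries (log axis) for the 28434 tested features in grey, with the 6 genes in red. ALDH1A2 lies at -1.90, below most features of its level, and the other 5 lie between -0.67 and -0.05. The share of tested features with a more negative difference ran from 3.75% for ALDH1A1 to 42.2% for CYP26B1.

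The surroundings of ALDH1A2 were examined because features of chromosome 26 were mostly lower after lentivirus. Of the other 689 tested features of that chromosome 75.0% had a negative difference, against 50.1% of all tested features, with a median of -0.18 log2. Within 1 Mb of ALDH1A2 lay 11 further tested features, measured between centres, and all 11 had a negative difference. These ran from -0.31 to -0.03 log2 with a median of -0.23. In 7 of the 11 every lentivirus-treated library was below every control library, which held for 16.5% of all tested features. Of the 11, 1 was called, where 3.59% of all tested features were called lower. Some of the 11 overlap one another, between 24583694 and 24639440, so they are not 11 separate positions. The nearest tested feature, from 25794818 to 25802263, averaged 23.6 FPKM in lentivirus-treated and 28.2 FPKM in control cells, a difference of -0.25 log2. ALDH1A2 differed in the direction of its neighbours and by a larger amount. It was selected among the largest decreases, so the larger amount is a description only.

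Within each library, ALDH1A2 was set against the median of these 11 neighbours. On the log2(FPKM + 1) scale it lay at -0.88, -0.65 and -0.66 relative to that median in lentivirus-treated libraries, and at 0.93, 0.96 and 1.27 in control libraries. It was below its neighbours' median in every lentivirus-treated library and above it in every control library. The difference between the groups was -1.78 log2 on this relative scale, and -1.53 log2 with the 53 neighbours within 5 Mb.

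**Figure D4:**
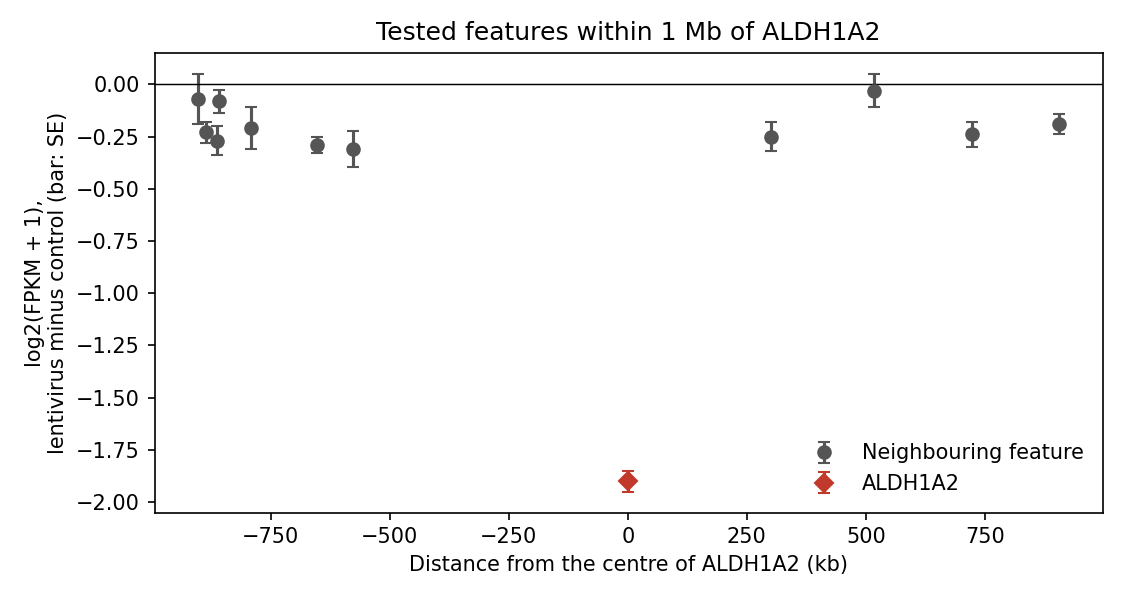
Difference in log2(FPKM + 1), lentivirus-treated minus control, with its SE, for ALDH1A2 (red diamond) and the 11 tested features within 1 Mb (grey), by distance from the centre of ALDH1A2 in kb. The neighbours lie between -0.31 and -0.03 and ALDH1A2 at -1.90.

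The other genes stood in varied surroundings, given here beside the 50.1% of all tested features that had a negative difference. RARB lies on chromosome 15, where 72.2% of 618 other tested features were lower and the median difference was -0.16 log2, but the 8 tested features within 1 Mb had a median of 0.01, with 4 of 8 lower. ALDH1A3 lies on chromosome 29, whose 369 other features had a median of 0.04 log2, and its 22 neighbours within 1 Mb had a median of -0.19, with 18 of 22 lower. The 14 neighbours of ALDH1A1 had a median of 0.17 log2, and the 62 of RARA a median of 0.00. CYP26B1 differed by about as much as its 13 neighbours, whose median was -0.07 log2. Relative to the neighbours' median in each library, the difference between the groups was -0.72 log2 for ALDH1A1, -0.54 for RARB, -0.35 for ALDH1A3, -0.15 for RARA and -0.06 for CYP26B1. Single neighbours ran from -1.48 to 2.15 log2 for ALDH1A1, from -0.79 to 0.79 for RARB and from -0.58 to 0.15 for ALDH1A3. They ran from -0.53 to 0.74 for RARA and from -0.68 to 0.13 for CYP26B1. Each of these ranges reached below the gene's own difference. What part the surroundings play in the difference of any gene was not tested.

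**Figure D5:**
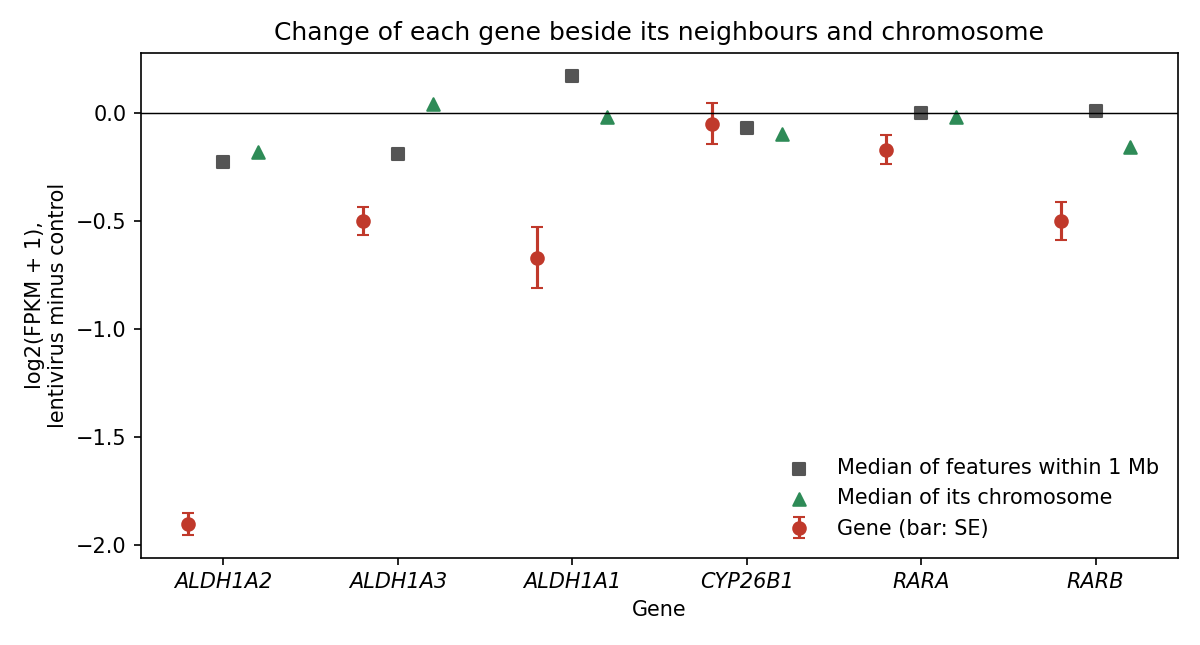
Difference in log2(FPKM + 1), lentivirus-treated minus control, for each gene (red, bar SE), the median of tested features within 1 Mb (grey squares) and the median of its chromosome (green triangles). CYP26B1 lies within its SE of both medians, and the other 5 genes lie below both by more than their SE. That SE leaves out the spread among neighbours. Every gene but ALDH1A2 had a neighbour within 1 Mb with a more negative difference than its own.

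The features whose profile over the 6 libraries was closest to that of ALDH1A2 were sought among 786 called features that overlap no other. Likeness was the Euclidean distance of log2(FPKM + 1) after each feature's own mean was subtracted. The closest was ENSP00000262776 (chromosome 16 from 70942207 to 70947710), at a distance of 0.41, where the median over the 786 was 2.00. It stood at 41.8, 43.0 and 39.8 FPKM in lentivirus-treated libraries, against 129, 116 and 136 FPKM in control libraries. Next was ENSP00000401764 (chromosome X from 62126462 to 62127674), at a distance of 0.51. It stood at 8.62, 8.71 and 9.04 FPKM in lentivirus-treated libraries, against 45.2, 43.6 and 52.1 FPKM in control libraries. Both were lower after lentivirus in the same libraries as ALDH1A2, and over 6 libraries in 2 groups the distance reflects mostly the size of that difference.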

How the data were processed

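The authors deposited a table of FPKM values with 1 column per library. The submitters' processing notes name Cuffdiff, Cufflinks 2.1.1, Bowtie2 2.1.0.0, TopHat2 2.0.10 and CASAVA. The role of each, the genome build, the scaling of columns and how human protein accessions were placed on monkey sequence are not given in the sources used.

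Of the 14128 features clear of any other, 2 stayed under 0.3 FPKM but above 0 in all 6 libraries, so the worth of 1 read could not be read from low values. Depth is therefore unknown, and counting intervals are left out. In R 4.3.3, limma 3.58.1 (lmFit, then eBayes using a trend on intensity) was fitted to log2(FPKM + 1) of the 28434 of 51520 features averaging 1 FPKM or more, with the group as the only term, two-sided p-values adjusted by Benjamini-Hochberg, and calls at 0.05. Fold changes on this scale understate those of low features. The fit was tested on simulated data. With 3 libraries a group, no exact permutation p can be under 0.10.

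All listed members are reported; the closest profiles were the 2 called lone features with at least 5 FPKM in the higher group and 1 FPKM in every library at the smallest distance. The members and lists were chosen with earlier results of these data known, and the neighbours of genes other than ALDH1A2 were added after values were seen. A list of further retinoic acid pathway genes was not analysed here, since 0 of the 51520 accessions matched the RefSeq gene table. Alternatives were other pseudocounts, filters and scalings, a replicate block, each library left out, and overlapping features summed.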

Additional observations from a re-analysis of the deposited data

How the results depend on the processing

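The count of 1842 called features (821 higher, 1021 lower) was 1197 with no filter, 3134 among loci of summed overlapping features, and 48 to 118 when 1 library was left out; the 3 called genes of the set became 1 in each of those 6 fits. Under a replicate block, limma called 0 features and 0 genes of the set, with 6084 features at an unadjusted limma p under 0.05, against 6890 without it. Deviations from the group mean correlated between libraries of the same number at r = 0.131, -0.028 and 0.003 for numbers 1, 2 and 3. Between libraries of unlike number r was -0.135 to 0.128. These values cannot settle whether libraries of the same number shared a culture or day, which the labels do not say. On the TPM scale, where columns sum to less than in FPKM while 1 was still added, 869 features were called higher and 870 lower. The ALDH1A2 difference of -1.90 log2 was -1.97 and -1.62 at pseudocounts of 0.1 and 5 FPKM and -1.79 on the TPM scale, and -1.92 to -1.87 without 1 library. Relative to its neighbours it was -1.78 log2, -1.52 at a pseudocount of 5, -1.53 with neighbours within 5 Mb, and -1.84 to -1.68 without 1 library. ALDH1A1 turned to 0.22 log2 when its 3 overlapping features were summed, a sign that rests on 1 feature near 0 in the first control library. The other genes kept a negative sign under every alternative in which they were fitted. ALDH1A1 was called at a pseudocount of 5 FPKM. ALDH1A1 and CYP26B1 did not reach the filter of 5 FPKM and have no value there. Depth is unknown, so how much of the spread is counting error was not estimated.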
